A study of Mus musculus with 30 samples.

Results

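Mouse ES cells without Tdg held 12584 regions at which 5-formylcytosine (5fC) and 5-hydroxymethylcytosine (5hmC) were both called and neither mark was called in ES cells that carry the gene. They were selected on the deposited lists of called regions as the Tdg -/- 5fC regions on chromosomes 1 to 19 and X that share no base with a fl/fl 5fC, fl/fl 5hmC or fl/fl p300 region and at least 1 base with a Tdg -/- 5hmC region. They are named doubly new regions here, where new means absent from the fl/fl list and present in the Tdg -/- list. They made up 12584 of the 120051 Tdg -/- 5fC regions (10.5%, Wilson 95% interval 10.3 to 10.7) and covered 8.90 Mb. Of all Tdg -/- 5fC regions 61.4% were new, and of all Tdg -/- 5hmC regions 32.3% were. The doubly new regions were 17.1% of the 73702 new 5fC regions.

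TET enzymes oxidise 5-methylcytosine to 5hmC, then to 5fC and to 5-carboxylcytosine. TDG, thymine DNA glycosylase, cuts out the last pair of bases, after which base excision repair restores an unmodified cytosine. 5hmC is thus the substrate from which 5fC is made, and 5fC is a substrate of TDG. The acetyltransferase p300 binds enhancers, and both oxidised bases are known from enhancers of ES cells.

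All groups came from ES cells of the C57BL/6-ICR strain, grown without feeder cells on gelatin with LIF and the inhibitors CHIR99021 and PD0325901, which hold ES cells in an undifferentiated state. The ES groups were Tdg fl/fl, with floxed alleles and TDG present, and Tdg -/-, with the gene deleted. The embryoid bodies (EB), aggregates in which ES cells differentiate, were Tdg fl/fl cells kept 5 days in suspension without LIF and both inhibitors. Each 5fC or 5hmC list stands on 2 libraries and each p300 list, for the ES genotypes alone, on 3. The sources used here do not say how the deletion was made or whether a genotype is 1 clone. Each list pools its libraries, so no value below has a spread between replicates and no difference between genotypes or stages was tested. The intervals printed cover counting error only, the number of reads behind each list is unknown, and neighbouring regions are not independent.

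In the pooled RNA values, the Tdg level was 22.1 FPKM with the floxed alleles and 9.48 FPKM after deletion, a log2 difference of -1.14 after adding 1. A value over the whole gene does not measure the deleted part alone. All 8 ES cell markers were expressed in both genotypes, from 31.6 to 630.5 FPKM in fl/fl and from 46.1 to 612.1 FPKM in Tdg -/- cells. Pou5f1, the pluripotency factor, was at 630.5 and 612.1 FPKM. The 6 fibroblast or feeder markers summed to 5.25 and 3.82 FPKM, and the 13 markers of primitive endoderm, mesoderm, neuroectoderm and trophectoderm were each at 6.09 FPKM or less in both genotypes. EB have no RNA values among the tables used.

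Doubly new regions were narrow and of low score. The score of a region is minus 10 times the log10 of the p-value of its call as the authors deposited it, and it ranks regions within a list only. The median score was 78.2, against 120.9 over all Tdg -/- 5fC regions, and 9926 members (78.9%) were under that list median. Only 450 (3.58%) were above a score of 233, the upper quartile of the list. The median width was 660 bp, against 770 bp over the list. A pair of like classes of new 5fC regions, both also without fl/fl p300, serve for comparison. The 45263 new 5fC regions that lie on fl/fl 5hmC had a median score of 100.9 and a median width of 739 bp. The 7539 new 5fC regions without 5hmC in either genotype had a median of 67.0 and 568 bp. The doubly new regions thus lay between these classes on both measures. The classes are set by overlap with other lists, and a wide region meets an overlap more easily than a narrow region. This order may therefore be built in to some extent, and the part of the overlap rule in it was not tested. The last 8316 new 5fC regions overlapped fl/fl p300 and belong to none of the 3 classes. The fl/fl 5fC list begins at a score of 60.92 and the Tdg -/- 5fC list at 50. Of the members, 2938 scored 50 to 60, below that fl/fl minimum. With 60.92 as the minimum in the 5fC lists, 9440 members were left.

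The 5hmC beneath most members was itself a new region as a whole. A member can lack fl/fl 5hmC while its Tdg -/- 5hmC region reaches a fl/fl 5hmC region further along. For 11204 of 12584 members (89.0%, 88.5 to 89.6) no Tdg -/- 5hmC region at the member did so, and for 1380 (10.97%, 10.4 to 11.5) one did. This share was 88.9% off chromosome 11 and 89.4% on it. The rule uses both 5hmC lists and removes members on fl/fl 5hmC, so a high share of wholly new regions is in part built in. For the remaining 1380 members the 5hmC region is one that reaches further than in fl/fl cells. The members used 12456 5hmC regions, of which 12194 held 1 member, 244 held 2 and 18 held 3 or more, up to 5.

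The 5hmC regions of the 2 kinds differed in size and score, while the 5fC regions on them did not differ in the same way. Wholly new 5hmC regions were 940 bp wide at the median, with a score of 108. Those that reached fl/fl 5hmC were 2400 bp wide, with a score of 373. The 5fC scores on them had medians of 78.3 and 77.6. Most members lay well inside their 5hmC region: the median member was covered over 100% of its width, and the centres of the paired regions were 103.5 bp apart at the median. Across members, Spearman's rho between the 5fC score and the 5hmC score was 0.19, and 0.15 off chromosome 11. The points share their libraries within each mark, and this is a description with no test.

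**Figure D1:**
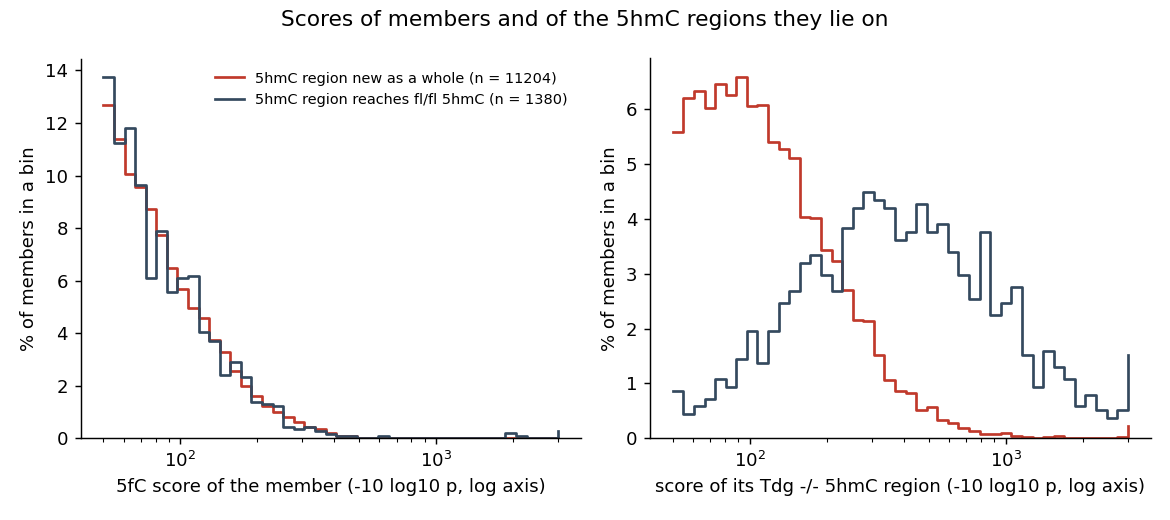
Share of members in each bin of score, on log axes, for the 5fC score of the member (left) and the score of the Tdg -/- 5hmC region it lies on (right). The 5fC curves of the 2 kinds of member lie on each other, with medians of 78.3 and 77.6, while the 5hmC curves are apart, with medians of 108 and 373.

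Seen from 5hmC, most new regions had no 5fC. Of the 56405 new Tdg -/- 5hmC regions, 11099 (19.7%, 19.35 to 20.01) held a doubly new 5fC region and 14698 (26.1%, 25.7 to 26.4) held any Tdg -/- 5fC region. Of the 118250 Tdg -/- 5hmC regions that fl/fl cells also had, 81191 (68.7%) held Tdg -/- 5fC. New 5hmC regions had lower scores, with a median of 79.8 against 207. By score, new 5hmC regions held 5fC at 14.4% (13.8 to 15.1) and those of both genotypes at 25.2% (24.0 to 26.4) at 50 to 60, and at 31.7% and 50.3% at 100 to 150. The share was the lower one for new 5hmC in each of 6 ranges of score. The difference was not tested.

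Of the 3 fl/fl lists, 5hmC had the shortest median distance to members. It is also the longest list, with 140943 regions against 57016 of 5fC and 32160 of p300. The nearest fl/fl 5hmC region was 2112 bp away at the median, and 4003 members (31.8%) had one within 1 kb and 10664 (84.7%) within 10 kb. For new 5fC without 5hmC this median was 2638 bp. The nearest fl/fl 5fC region was 7561 bp away at the median, with 9.69% of members within 1 kb, and the nearest fl/fl p300 region 15210 bp away, with 7.73% within 1 kb. The rule rests on a limit of 1 base. The 496 members with fl/fl 5hmC within 100 bp had a median score of 78.5, and the 393 regions that missed membership through an overlap of up to 100 bp with fl/fl 5hmC had a median of 77.7. These neighbours of the limit were also near each other in EB 5hmC, at 42.9% and 44.8%. At 3 members the fl/fl 5hmC region ended where the member began or began where it ended.

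**Figure D2:**
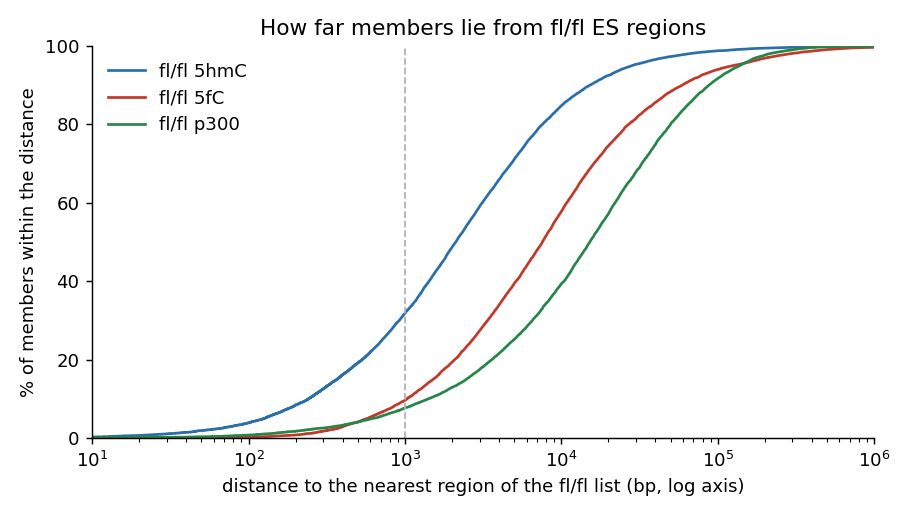
Cumulative share of the 12584 members by distance, in bp on a log axis, to the nearest region of each fl/fl ES list, with a dashed line at 1 kb. The curve for 5hmC, the longest list, lies to the left of those for 5fC and p300: 31.8%, 9.69% and 7.73% of members had such a region within 1 kb.

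Chromosome 11 held far more members than its share of 5fC regions. It had 2792 members, 22.2% of all, but 8.66% of the Tdg -/- 5fC regions. On chromosome 11 doubly new regions were 26.9% of Tdg -/- 5fC regions (26.0 to 27.7), and off it 9792 of 109656 (8.93%, 8.76 to 9.10). Every 5 Mb bin of chromosome 11 with at least 50 Tdg -/- 5fC regions was high: the share lay between 20.4% and 36.7% in 24 bins. Members on 11 had a median score of 87.3, against 75.9 off it. This was not particular to members. The medians were 143.0 and 98.6 for new 5fC on fl/fl 5hmC, and 136.0 and 119.8 for all Tdg -/- 5fC regions. Of the members on 11, 40.6% had no other member within 10 kb, against 76.3% off chromosome 11. No other chromosome held as many members, and a denser set leaves fewer lone members at a fixed distance. Clustering beyond this density was not tested.

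A second stretch, the first 35 Mb of chromosome 6, was chosen after its values were seen. There 372 of 1215 Tdg -/- 5fC regions (30.6%, 28.1 to 33.3) were doubly new, and beyond 35 Mb on the same chromosome 468 of 4962 (9.43%) were. Each of its 6 bins with at least 50 regions was between 21.2% and 42.0%. On X, 100 of 548 (18.2%, 15.2 to 21.7) were doubly new. The other 17 autosomes lay close together, from 7.46% to 9.77% for each chromosome, and none of their 352 bins passed 20%.

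**Figure D3:**
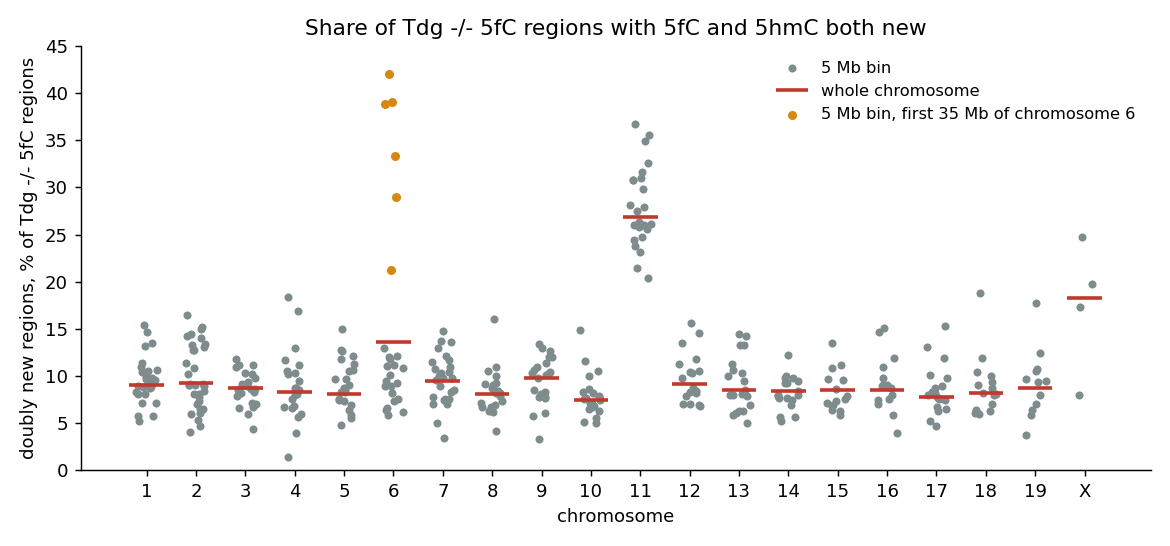
Share of Tdg -/- 5fC regions that were doubly new, for each 5 Mb bin with at least 50 such regions (points) and each whole chromosome (lines), with the first 35 Mb of chromosome 6 in orange. All 24 bins of chromosome 11 and the 6 orange bins lie above 20%, against 1 of 4 on X and 0 of the 352 on the other 17 autosomes.

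The fl/fl ES lists of 5fC and 5hmC were short on these stretches. For 5fC the Tdg -/- list held 4.03 times as many regions as the fl/fl list on chromosome 11, 5.57 times on the first 35 Mb of 6, 5.27 times on X and 1.99 times on the other 17 autosomes. For 5hmC these ratios were 2.21, 2.35, 1.60 and 1.18. The EB list comes from fl/fl cells too and gives a second view of that genotype. For 5fC it held 0.932 times as many regions as the fl/fl ES list on chromosome 11, 1.56 on the first 35 Mb of 6 and 1.02 on X, against 0.404 elsewhere. The EB ratio for 5hmC was 1.18, 1.39 and 1.94 on them, against 0.689. Relative to the other autosomes, the fl/fl ES lists of both marks were thus short against the EB lists as well as against the Tdg -/- lists. Both sets of ratios divide by the same fl/fl ES lists. The rule takes members from places absent from those lists, so these ratios and the share of members are not separate findings.

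p300 and RNA gave another order. The Tdg -/- list of p300 held 0.787 times as many regions as the fl/fl list on chromosome 11, against 1.34 on the first 35 Mb of 6, 1.51 on X and 1.34 to 1.48 for each of the other 17 autosomes. The median log2 difference in RNA, Tdg -/- over fl/fl, was -0.21 over 917 genes of chromosome 11 and between -0.03 and 0.01 on each of the other 19 chromosomes. Their part in the number of members on chromosome 11 was not tested. DNA copy number was not measured here, and its part was not tested.

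3 lists outside the rule bear on the members: EB 5hmC, EB 5fC and Tdg -/- p300. Of the members, 6365 (50.6%, 49.7 to 51.5) overlapped an EB 5hmC region, against 56.4% of all Tdg -/- 5fC regions. The share was 56.2% (55.7 to 56.7) for new 5fC on fl/fl 5hmC and 38.5% (37.4 to 39.6) for new 5fC without 5hmC. About as many members had EB 5hmC off chromosome 11, 50.3%, as on it, 51.5%. The difference of members from new 5fC on fl/fl 5hmC was -5.62 percentage points, and members were lower on 20 of 20 chromosomes. It was 12.1 points higher than that of new 5fC without 5hmC, and higher on 20 of 20. Fl/fl cells that lacked called 5hmC at these places as ES cells thus had it called, as EB, at about as many members as not.

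EB 5fC was called at 1452 members (11.5%, 10.99 to 12.11), against 17.1% of all Tdg -/- 5fC regions. The like classes were close to the members, at 12.4% (12.1 to 12.7) on fl/fl 5hmC and 11.3% (10.59 to 12.02) without 5hmC. Members were higher than the first class on 5 and lower on 15 of 20 chromosomes, and higher than the second on 9 and lower on 11. On chromosome 11 members were at 11.9% and new 5fC on fl/fl 5hmC at 16.4% (15.2 to 17.7). No order of the 3 classes held across chromosomes for this list over all scores.

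p300 of Tdg -/- cells was called at 709 members (5.63%, 5.24 to 6.05), against 14.8% of all Tdg -/- 5fC regions. That total holds regions with fl/fl p300, which the rule removes from the members, so the like classes are the closer comparison. They stood at 6.72% (6.496 to 6.957) on fl/fl 5hmC and 12.4% (11.7 to 13.2) without 5hmC. The share of members was below the latter on 20 of 20 chromosomes, with a difference of -6.77 points in all. On chromosome 11, where p300 regions were fewer in Tdg -/- cells, the 3 shares were 2.76%, 2.97% and 6.88%. Off it they were 6.45%, 7.04% and 12.9%. New 5fC without 5hmC thus overlapped Tdg -/- p300 more often than doubly new regions did, at 12.4% against 5.63%. These shares count any Tdg -/- p300 region, also one that reaches fl/fl p300 further along.

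**Figure D4:**
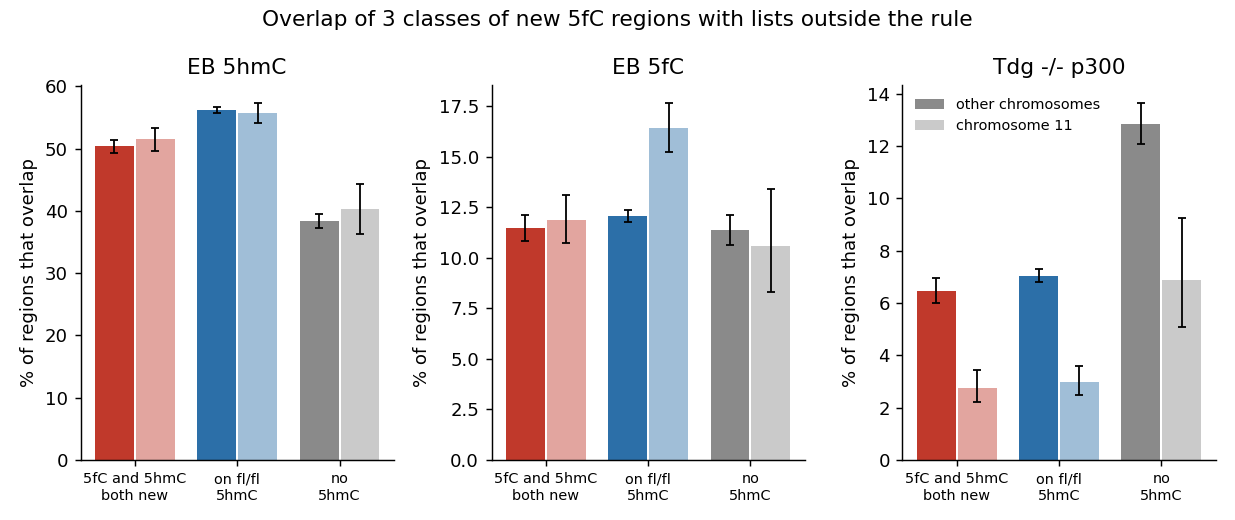
Percentage of regions that overlap EB 5hmC, EB 5fC and Tdg -/- p300 for 3 classes of new 5fC regions without fl/fl p300, off chromosome 11 (dark) and on it (pale), with Wilson 95% intervals as bars. Doubly new regions are between the other classes for EB 5hmC, at 50.3% off chromosome 11, and below the class without 5hmC for p300.

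These shares moved with the score of the 5fC region, and the classes differ in score. Among members, EB 5hmC was called at 40.3% of those with a score of 50 to 60 and 73.8% of those at 250 or more. EB 5fC went from 5.17% to 49.7% over the same range, and Tdg -/- p300 from 3.51% to 9.56%. Within a range of scores, the gap in EB 5hmC between members and new 5fC on fl/fl 5hmC was small: 45.6% against 47.0% at 60 to 80, and 59.4% against 59.8% at 100 to 150. For EB 5fC the members were then above that class, at 15.8% against 10.6% at 100 to 150 and 26.7% against 19.2% at 150 to 250, and new 5fC without 5hmC was above the members in each of the 6 ranges, at 21.5% and 31.1% in the same 2. Within a range of widths the gap in EB 5hmC stayed: 50.2% of members against 54.4% of new 5fC on fl/fl 5hmC at 500 to 700 bp, and 54.6% against 60.1% at 700 to 1000 bp. New 5fC without 5hmC had the highest p300 share in every range, such as 12.1% against 3.86% of members at 60 to 80, though only 24 of its regions scored 250 or more. Its lower share of EB 5hmC held below a score of 150, and at 150 to 250 it was 69.3% (63.4 to 74.7) against 65.8% (63.1 to 68.4) of members.

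**Figure D5:**
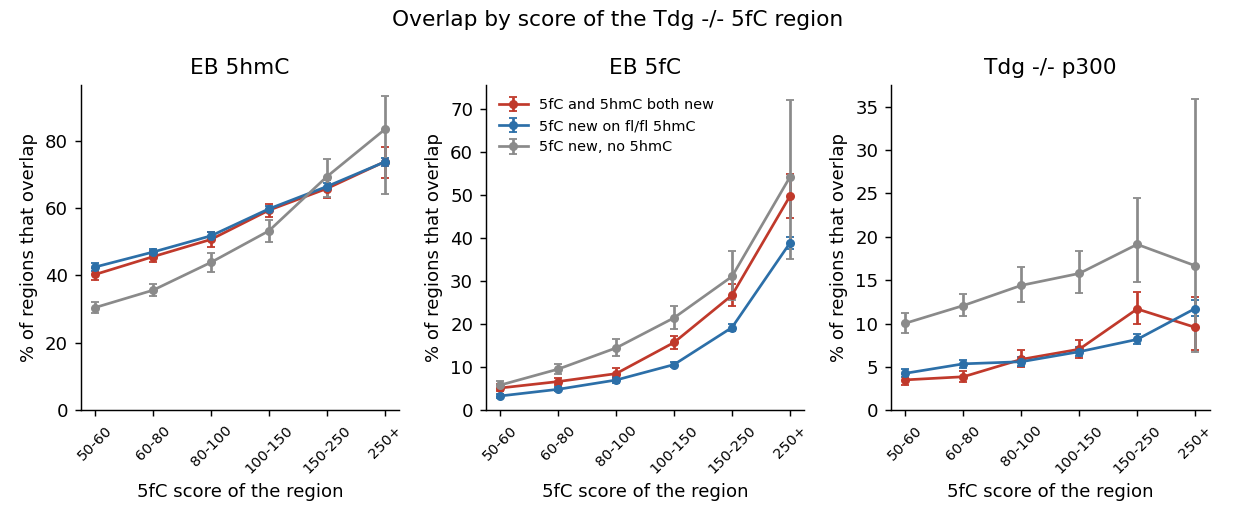
Percentage of regions that overlap each list by the score range of the Tdg -/- 5fC region, for the 3 classes, with Wilson 95% intervals. All curves rise with score for both EB lists, members and new 5fC on fl/fl 5hmC lie close for EB 5hmC, and for EB 5fC members lie between the other classes, at 49.7% in the highest range.

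The 3 lists met at few members. All 3 lay at 117 members and none at 5636 (44.8%), while 4949 (39.3%) had EB 5hmC alone. Of the 1452 members with EB 5fC, 78.5% (76.3 to 80.5) also had EB 5hmC, against 46.9% of those without EB 5fC. Of the 709 with p300, 22.8% had EB 5fC, against 10.9% of those without. Members with EB 5fC had a median 5fC score of 118, against 75.5 for those without, so these groups also differ in score. The EB 5hmC regions at members scored much like their list, with a median of 110 against 104 over the EB list. Tdg -/- p300 regions at members had a median of 81.6, against 115 over their list.

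Members whose 5hmC region was new as a whole and those whose 5hmC region reached fl/fl 5hmC differed in EB. EB 5hmC was called at 51.9% (51.0 to 52.9) of the former and 39.5% (36.9 to 42.1) of the latter. EB 5fC was called at 11.5% and 11.8%, and Tdg -/- p300 at 5.22% (4.82 to 5.65) and 8.99% (7.59 to 10.6). Distance gave the same order. Of members with fl/fl 5hmC within 100 bp, 42.9% had EB 5hmC and 12.1% had p300, and of those 10 kb or more from it, 57.3% and 3.28% did. Members far from fl/fl 5hmC thus had more EB 5hmC and less p300.

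A small group of members had very high scores. Only 21 members had a score of at least 1000, of 1790 in the list, and none was on chromosome 11. They lay on 10 chromosomes, 3 of them on X, and their 5hmC regions had a median score of 3100 and a median width of 5034 bp. Of these 21, 13 had a fl/fl 5fC region within 1 kb and 17 a fl/fl 5hmC region within 5 kb. EB 5hmC lay at 15, EB 5fC at 10 and p300 at 4. Of all members with a score of 250 or more, 73.8% had EB 5hmC, 49.7% EB 5fC and 9.56% p300. Positions are in mm9 and printed as deposited, and without a gene annotation of that build no gene, exon or intron is assigned to them. Whether these places are prone to false signal was not tested.

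The highest score off chromosome 11 was at chr10:43228651-43232343 (3158), on a new 5hmC region with a score of 3100, a value that the 5hmC regions of 44 members share. EB 5hmC (808) and EB 5fC (124) were called there, and fl/fl 5fC began 352 bp away. Next came chr8:123097471-123099597 (3153), on a 5hmC region of 18820 bp that reached fl/fl 5hmC. chr12:99925669-99929744, chr4:141033091-141035870 and chrX:166418404-166420462 followed, each with a score of 3100. All 5 had EB 5fC, with scores between 103 and 225, against 49.7% of all members with a score of 250 or more. Except on X, where it was 11900 bp away, a fl/fl 5fC region lay within 509 bp of each.

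The member on X is 1 of 6 near the end of the called part of that chromosome, from 166416017 to 166429215, a set picked after its values were seen. Their 5fC scores ran from 310 to 3100 and their 5hmC regions all scored 3100. Of all members with a score of 250 or more, 73.8% had EB 5hmC and 49.7% had EB 5fC. EB 5hmC was called at all 6 of this set and EB 5fC at 4, against 63% and 13% of all members on X. The nearest fl/fl 5hmC region was 50211 bp or more away, and the nearest fl/fl 5fC region between 3147 and 14217 bp. Fl/fl cells thus had 5hmC called at these 6 members as EB and not as ES cells. At chrX:166418404-166420462 the EB 5hmC score was 51.7, near the list minimum of 50. The Tdg -/- 5hmC region at that member, from 166415724 to 166424439, also overlaps others of the 6, so the 6 are not separate places.

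On chromosome 11 the highest scores were lower, at chr11:21898982-21900955 (845), chr11:96116254-96117969 (777) and chr11:96205258-96206886 (716). Each lay on a wholly new 5hmC region, with scores of 217, 562 and 274. Of all members with a score of 250 or more, 73.8% had EB 5hmC and 49.7% had EB 5fC. All 3 named regions had EB 5hmC, with scores of 353, 620 and 905, and EB 5fC, with scores of 229, 178 and 486. The third of them is part of the longest run of members, counted where neighbours are under 10 kb apart: 17 members at chr11:96137222-96210333, over 73.1 kb. That span held 33 Tdg -/- 5fC regions, 5 fl/fl ES 5fC regions and 33 EB 5fC regions. EB 5fC lay at 13 of the 17 members, EB 5hmC at 6 and p300 at none. Against 11.9% of members on chromosome 11 as a whole, EB 5fC was thus called at most members of this run. The run also scored higher, with a median 5fC score of 167 against 87.3 for members on chromosome 11. EB 5fC was called at 26.7% of all members with a score of 150 to 250.

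Off chromosome 11 the 3 runs with the most members held 7 each, and all were in the first 35 Mb of chromosome 6. They lay at chr6:6107049-6135968, chr6:30302044-30331646 and chr6:28778501-28815905. EB 5hmC lay at 4, 2 and 6 of their members, and EB 5fC at 1 member of each. Of all members in the first 35 Mb of chromosome 6, 60.8% had EB 5hmC and 15.9% had EB 5fC. Of 67 runs with 5 or more members, 50 were on chromosome 11, which held 22.2% of all members. Runs also depend on the density of members, and clustering beyond it was not tested.

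Only 2 members lay on 5hmC regions of a score above 3100. These regions were at chr12:114145725-114157565 (3224), which reached fl/fl 5hmC and held a member of score 229 with p300, and at chr2:166929066-166932532 (3165), which was wholly new. The latter held the member chr2:166929223-166932375 (2059), with EB 5hmC (270), no EB 5fC and fl/fl 5hmC 337 bp away. Members with all 3 lists were led by chr1:120733406-120734855 (2456), with an EB 5hmC score of 1449, EB 5fC of 106 and p300 of 167. chr6:21800744-21801422 (600) and chr16:93438019-93439042 (433) followed, both on wholly new 5hmC. Members with none of the 3 were led by chr4:141019085-141022746 (3039), chr8:46035612-46038600 (1435) and chr8:46110029-46111589 (1410). At the last of these an EB 5hmC region began 8 bp away, so that its place among members with no list rests on the overlap rule.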

How the data were processed

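The 8 region lists were called on pooled replicates, 18 of 30 libraries, per the labels; input, non-NaBH4 control and H3K4me1 libraries were not used here. The submitters' processing notes name Bowtie, MACS 1.4 and mm9. The authors deposited a score for every region, which per the file headers (ES 5fC and 5hmC) is minus 10 times log10 p; the other lists were read on that scale. It grows with depth, which is unknown, so it ranks regions within a list only. Scores began at 60.92 for fl/fl ES 5fC and at 50 elsewhere. The part of this difference in the number of new 5fC regions was not tested. FPKM values, deposited by the authors, are 1 per gene and genotype (TopHat 1.4.1 and Cufflinks 1.3.0, per the submitters' processing notes); rows of 1 symbol were summed, 1 was added before log2, and genes of at least 1 FPKM in either genotype were counted. Of 20286 symbols, 18017 had a chromosome in RefSeq GRCm38.p6. Starts and ends were read as half-open intervals in Python 3.11.15 with numpy 2.4.6 and pandas 2.3.3, tested on simulated data against bedtools 2.31.1. Overlap meant 1 shared base. Where a member lay on several 5hmC regions, the highest score counts. Named regions were the 5 highest members off and 3 on chromosome 11, the 3 highest partners (the third is 1 of many ties), the 3 highest with all and with none of the outside lists, and the longest runs. Members, classes and lists were chosen with earlier results of these data known. No sequence is printed, since no mm9 genome was used here.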

Additional observations from a re-analysis of the deposited data

How the results depend on the processing

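No paired analysis was possible because each list pools its replicates, and for that reason no replicate could be left out either. Expression at members and sequence composition were not run. Under up to 9 alternatives, 52 of 97 shares and differences stayed within the interval of the value given and 45 did not. The number of members ran from 2756 to 13964. A difference changed sign in 6 cases, of which 5 were the second EB 5fC difference below, whose interval of -0.66 to 1.15 holds 0. The causes were not tested. A pair of alternatives, without chromosomes 11 and X and the first 35 Mb of 6 and with ends counted as part of a region, were chosen after seeing the data. Depth limits all lists to an unknown degree.

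Values that moved past their interval or changed sign, and numbers of members that moved over 1.5 times, are given by setting. Differences are in percentage points, members minus new 5fC on fl/fl 5hmC (first) or minus new 5fC without 5hmC (second). With both Tdg -/- lists limited to scores of at least 100, 2756 members were left, 35.6% on chromosome 11 and 84.9% with a wholly new 5hmC region. Shares were 63.2% for EB 5hmC, 21.2% for EB 5fC and 7.37% for p300. The first EB 5fC difference turned from -0.87 to 1.66, the second was -3.16, and those for EB 5hmC were -1.84 and 3.804. With a distance of at least 1 kb from fl/fl regions, 7881 members were left, 24.4% on chromosome 11 and 99.4% with new 5hmC, with EB 5hmC at 53.4% (differences -3.31 and 15.5) and p300 at 3.82% (-2.16 and -5.49). With regions closer than 1 kb merged, 21.2% lay on chromosome 11 and 77.3% had new 5hmC. EB 5hmC was at 52.8% (-8.24 and 14.7), p300 at 4.92% (first -1.96), and the EB 5fC differences were -2.39 and 1.23. With 50% of the 5fC region covered, 90.6% had new 5hmC, EB 5fC was at 10.8% (second -0.78) and p300 at 4.94% (first -0.30). With the centre inside, the values were 89.6% for new 5hmC, 49.6% for EB 5hmC, 5.16% for p300 (first -0.23) and -0.81 for the second EB 5fC difference. With the fl/fl minimum score in the 5fC lists, 23.9% lay on chromosome 11, EB 5hmC was at 53.9% (second 10.6), EB 5fC at 9.65% (second -0.84) and p300 at 6.36%. Without chromosome 11, p300 was at 6.45% (first -0.59), and without X and the start of 6 too at 6.46%, with -0.15 for the second EB 5fC difference, which was 0.25 over all members.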

Other observations

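EB regions at members were mostly ones that fl/fl ES cells lacked. Of the 6291 EB 5hmC regions that overlapped a member, 5770 (91.7%, 91.0 to 92.4) overlapped no fl/fl ES 5hmC region, against 36.2% of all EB 5hmC regions. The rule removes fl/fl ES 5hmC from the members themselves, so a high share is built in, and what it adds is that few of these EB regions reach fl/fl 5hmC elsewhere. Seen from EB, 15.7% of the 36756 EB 5hmC regions without fl/fl ES 5hmC held a doubly new region, 13.6% off chromosome 11 and 32.0% on it.

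For 5fC, 1445 of the 1456 EB regions at members overlapped no fl/fl ES 5fC region, against 59.8% of all EB 5fC regions. The rule again favours this. Doubly new regions lay in 9.78% of the 14781 EB 5fC regions without fl/fl ES 5fC, in 8.57% off chromosome 11 and 18.8% on it. Of the 708 Tdg -/- p300 regions at members, 634 (89.5%) had no fl/fl p300 region, against 42.2% of all Tdg -/- p300 regions. Here too a high share is built in, since the rule removes members on fl/fl p300.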
